A study of Mus musculus with 6 samples.

Results

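Transcription factor genes of blood progenitors, 8 in number, were followed in whole mouse embryos: Gfi1, Gfi1b, Gata2, Runx1, Myb, Lyl1, Lmo2 and Spi1. They were chosen by name, with their differences between the same 2 genotypes already known, so their levels and differences are given as a description and without a p-value. Counts of members past the threshold used over the whole array are part of that description. They stand among 19505 genes named on the array. The array names 7 of the 8 directly. The probe of Spi1 carries an older name, Sfpi1, and was found through its accession. The 8 genes have 13 probes, of which 12 probes of 7 genes were measured, meaning that in at least 1 genotype all 3 arrays read them well above background. The probe of Spi1 was not.

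The arrays compared embryos with a conditional knockout of Brg1 (Brg1d/d, here Brg1 CKO) with embryos carrying the floxed gene (Brg1fl/fl, here control), which the labels call wild type. Brg1 is the product of Smarca4 and supplies the ATP-driven motor of SWI/SNF complexes, which move nucleosomes. All embryos were harvested at embryonic day 8.5, and the dams of both genotypes had received tamoxifen by intraperitoneal injection. Each genotype had 3 samples, called biological replicates by the labels, and each sample was read on 1 Agilent array with a single dye. The sources used here do not give the Cre driver, the day of injection, or how many embryos went into a sample.

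Gfi1 and Gfi1b are closely related zinc finger repressors that recruit histone demethylase and deacetylase complexes through a short SNAG domain. In the mouse embryo they act downstream of Runx1 when blood cells emerge from haemogenic endothelium, where they silence endothelial genes. Gata2, Runx1, Lyl1, Lmo2, Gfi1b and Spi1 are parts of a densely connected network of factors in blood stem and progenitor cells, and Myb is needed for definitive but not for primitive blood formation. At embryonic day 8.5 most blood cells are primitive red cells of the yolk sac, and definitive progenitors are just appearing.

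A level is the log2 signal of a probe minus the 75th percentile of its array, so that 0 is the brightness of that percentile. Levels of different probes are not comparable. A probe or gene is said to have passed when its limma p-value, adjusted by the Benjamini-Hochberg method over all 27854 measured probes, was below 0.05. Each SE, given after ±, is that of the limma fit, in which the variance of a probe is moderated by that of all measured probes. For widely varying probes, such as that of Gfi1b, it is smaller than the probe's own arrays alone would give. Of these probes 1399 were higher and 1211 lower in Brg1 CKO, so that 53.6% of the calls were upwards. That share was 43.5% with median scaling, 44.4% with normexp background correction and 45.4% with quantile scaling. The median difference of all probes was 0.07, and median scaling moved it to -0.03. Smarca4 itself was lower in Brg1 CKO, by 2.08 to 2.69 on the log2 scale over its 3 probes. The deleted exons are not given, so these probes need not lie in the deleted part.

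Some arrays stood apart from the rest. CKO 1 and CKO 3 were each scanned on a day of their own, while CKO 2 and the 3 controls shared a scan day. The brightest spike-in control gave 12950 and 6968 units on CKO 1 and CKO 3, against 219065 to 249079 units on the remaining arrays, a split called the labelling batch here although its cause is not known. Differences are therefore also given as CKO 2 minus the mean of the 3 controls, the same-day difference. All controls lay on 1 slide and every CKO array on another one of its own, so slide and genotype cannot be told apart. Control 1 differed from the other controls in blood and yolk sac genes, as described further on. Each measured member is given without it as well, at least through its brightest probe. Nothing in the labels ties a replicate number of one genotype to the same number of the other.

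The promoters of the 3 members that passed as higher in Brg1 CKO, Gfi1, Gata2 and Myb, are shown with that of Gfi1b, the close relative of Gfi1. They are RefSeq sequences of build GRCm38.p6, from 250 bases before to 50 after each listed start, printed 5′ to 3′ on the gene's strand. Capitals mark matches, on either strand, to short motifs of the factors themselves. The motif searched for GFI1 and GFI1B was AAATCA. That of GATA factors was AGATAA. That of RUNX factors was TGTGGT. That of ETS factors such as PU.1 was AGGAAG. For basic helix-loop-helix factors such as LYL1 the E-box CAGCTG was searched, which reads the same on both strands, and also the related E-box CAGATG.
Gfi1 (chr5:107725756-107726055, minus strand): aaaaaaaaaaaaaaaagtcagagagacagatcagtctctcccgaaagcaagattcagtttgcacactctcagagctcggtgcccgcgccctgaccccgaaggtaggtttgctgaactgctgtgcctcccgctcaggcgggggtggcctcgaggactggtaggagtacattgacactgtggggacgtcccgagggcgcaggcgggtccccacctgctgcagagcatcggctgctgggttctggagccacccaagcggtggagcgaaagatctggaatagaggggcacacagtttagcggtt
Gfi1, second start (chr5:107724294-107724593, minus strand): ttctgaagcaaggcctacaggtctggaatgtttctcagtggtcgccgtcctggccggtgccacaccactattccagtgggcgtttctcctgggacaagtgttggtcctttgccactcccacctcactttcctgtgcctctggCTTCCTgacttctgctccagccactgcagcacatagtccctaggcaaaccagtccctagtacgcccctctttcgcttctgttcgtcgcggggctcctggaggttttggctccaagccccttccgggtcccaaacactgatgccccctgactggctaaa
Gfi1b (chr2:28621933-28622232, minus strand): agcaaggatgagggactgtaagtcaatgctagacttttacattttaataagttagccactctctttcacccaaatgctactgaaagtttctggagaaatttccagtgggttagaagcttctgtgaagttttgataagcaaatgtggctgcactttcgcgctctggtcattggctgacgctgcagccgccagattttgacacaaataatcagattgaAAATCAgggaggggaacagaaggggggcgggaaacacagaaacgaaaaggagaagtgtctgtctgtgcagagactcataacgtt
Gata2 (chr6:88193641-88193940, plus strand): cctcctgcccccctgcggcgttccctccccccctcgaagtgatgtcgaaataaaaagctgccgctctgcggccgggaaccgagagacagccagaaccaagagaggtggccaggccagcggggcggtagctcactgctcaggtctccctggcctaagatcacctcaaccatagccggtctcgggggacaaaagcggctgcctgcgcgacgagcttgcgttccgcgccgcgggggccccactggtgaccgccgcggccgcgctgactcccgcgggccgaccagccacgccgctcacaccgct
Gata2, second start (chr6:88198414-88198713, plus strand): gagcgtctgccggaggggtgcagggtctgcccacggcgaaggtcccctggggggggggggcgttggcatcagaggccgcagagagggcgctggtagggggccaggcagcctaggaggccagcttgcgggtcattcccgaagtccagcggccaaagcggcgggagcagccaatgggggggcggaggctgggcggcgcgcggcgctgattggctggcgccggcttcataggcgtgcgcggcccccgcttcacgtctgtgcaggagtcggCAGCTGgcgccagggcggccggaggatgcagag
Myb (chr10:21160935-21161234, minus strand): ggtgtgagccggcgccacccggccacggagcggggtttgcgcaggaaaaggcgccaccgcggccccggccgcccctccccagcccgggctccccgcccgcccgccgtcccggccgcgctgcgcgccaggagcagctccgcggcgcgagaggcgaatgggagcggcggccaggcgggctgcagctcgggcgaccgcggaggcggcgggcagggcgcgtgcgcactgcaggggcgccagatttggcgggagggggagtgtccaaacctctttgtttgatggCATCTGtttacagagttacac

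A GFI1 motif lay 34 bases before the start of Gfi1b, and 14.0% of all 32851 promoters in the table hold that motif. The second start of Gfi1 had an ETS motif 108 bases upstream, a motif of 35.4% of promoters. The E-box CAGCTG, found in 16.3% of promoters, began 17 bases after the second start of Gata2. The related E-box, found in 17.2%, began 29 bases after the start of Myb. The first promoters of Gfi1 and Gata2 had no match. RUNX motifs, present in 16.8% of promoters, occurred among the members only in a Runx1 promoter, which also had an ETS motif. The letters AGATAA, present in 11.2%, were in none of the 9 member promoters. Other forms of a GATA site, such as the TGATAA in the printed Gfi1b promoter, were not searched. A match is no evidence of binding, and no match says only that these letters are not in the window. The base composition differed widely, with a GC content of 44.3% for Gfi1b, 58.0% for both Gfi1 promoters, 69.3% and 73.7% for Gata2 and 75% for Myb, against a median of 52.7% over all promoters. Lmo2 and Spi1 are not in the promoter table.

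Gfi1 was the member with the largest difference. Its single probe, A_51_P200262 (build mm7, chr5:106894171-106894230, minus strand), read -0.65, -0.44 and -0.52 on CKO 1, 2 and 3, against -5.81, -4.41 and -4.61 on controls 1, 2 and 3. The CKO arrays lay close together and far above every control, and the signal was well above background on all 6 arrays. The difference was 4.41 ± 0.37 (SE, n = 3 and 3), or 21.2-fold, and the same-day difference was 4.50. Among 15027 measured genes, 6 had a larger difference towards higher levels in Brg1 CKO over all arrays. Without control 1, the dimmest control for Gfi1, the difference was 3.98, and over all fits that left out 1 array it ranged from 3.98 to 4.67. The probe was dim in the controls, and normexp background correction, which treats dim signal differently, gave 2.93.

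Gfi1b, which acts chiefly in red cells and megakaryocytes, had a different pattern. Its probe, A_51_P370678 (mm7, chr2:28616773-28616832, minus strand), read 0.04, 0.03 and -0.05 on CKO 1, 2 and 3, against -2.30, 0.75 and 1.26 on controls 1, 2 and 3. The CKO arrays were nearly equal, while the controls spanned a far wider range, with control 1 below all CKO arrays and controls 2 and 3 above them. The difference over all arrays was 0.10 ± 0.88 (SE, n = 3 and 3), and the same-day difference was 0.12. Without control 1 it was -0.996, which passed the threshold as lower in Brg1 CKO, and without control 3 it was 0.78. With all arrays kept it was -0.72 with array weights and -0.014 with normexp correction, so the Gfi1b difference had no settled sign.

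Gata2 is a zinc finger factor needed for the formation and expansion of blood stem cells and is also expressed in endothelium, trophoblast and neural tissue. Its brighter probe, A_51_P516625 (mm7, chr6:88281934-88281993, plus strand), read 2.08, 2.04 and 1.65 on CKO 1, 2 and 3, against -0.40, 0.00 and -0.07 on controls 1, 2 and 3. All CKO arrays lay above all controls. The difference was 2.08 ± 0.20 (SE, n = 3 and 3), or 4.22-fold, with a same-day difference of 2.19. The second probe, A_52_P233441 (mm7, chr6:88281461-88281520), read 1.71, 1.86 and 1.26 on CKO 1, 2 and 3, against -1.12, -0.55 and -0.48 on controls 1, 2 and 3, a difference of 2.33 ± 0.25 (SE). On both Gata2 probes CKO 3 was the dimmest of the CKO arrays and control 1 the dimmest control. Without control 1 the differences were 1.96 and 2.13.

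Myb, the proto-oncogene that maintains proliferating progenitors, was read by 4 probes spread over its locus, all with the CKO arrays above the controls. The brightest, A_51_P375543 (mm7, chr10:20851212-20851271, minus strand), is spotted 10 times on each array. It read -0.21, -0.13 and -0.40 on CKO 1, 2 and 3, against -2.02, -1.53 and -1.61 on controls 1, 2 and 3. The difference was 1.47 ± 0.19 (SE, n = 3 and 3), or 2.77-fold, with a same-day difference of 1.59 and a difference of 1.32 without control 1. The neighbouring probe A_51_P375538 gave 2.01 ± 0.18. The other 2 probes lie upstream of these in the gene. A_52_P83704 gave 2.24 ± 0.30 and A_52_P444839 gave 1.62 ± 0.22 (SE, n = 3 and 3 for each). Both were dim, and A_52_P444839 was well above background on 2 of 3 controls. With normexp background correction these dim probes gave 0.87 and 0.23.

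Runx1, which starts the endothelial to blood transition, was read by 2 probes that did not agree. The probe A_51_P206585 (mm7, chr16:92658334-92658393, minus strand) read -1.96, -1.89 and -1.96 on CKO 1, 2 and 3, against -5.25, -2.77 and -2.19 on controls 1, 2 and 3. The CKO arrays were nearly equal and lay above all controls, of which control 1 was the dimmest. The difference was 1.47 ± 0.75 (SE, n = 3 and 3) and did not pass, and without control 1 it was 0.54. The probe A_52_P202358, which spans an intron between chr16:92667924 and chr16:92698376 in mm7, read -2.06, -2.97 and -2.44 on CKO 1, 2 and 3, against -3.13, -2.89 and -2.59 on controls 1, 2 and 3. Here the genotypes overlapped. The difference was 0.38 ± 0.27 (SE) and the same-day difference -0.10.

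The array's own sequences are shown for the probe of Runx1 that spans an intron and for the Myb probe farthest upstream, because each read its gene at another place than the brighter probe did. Both are 60 bases long and printed 5′ to 3′ in the direction of the transcript, without marked bases.
Runx1 A_52_P202358 (mm7, chr16:92667924-92698376, minus strand): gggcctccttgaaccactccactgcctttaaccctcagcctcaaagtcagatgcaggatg
Myb A_52_P444839 (mm7, chr10:20878630-20878689, minus strand): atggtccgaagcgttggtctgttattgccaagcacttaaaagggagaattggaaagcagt
An exon annotation of mm7 was not used here, so which exon, intron or untranslated region holds a probe is not given.

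Lyl1 and Lmo2 encode partners in the same complexes, a basic helix-loop-helix factor and a LIM-domain bridging protein. Lyl1, probe A_51_P143190 (mm7, chr8:83289447-83289506, plus strand), read 1.98, 1.91 and 2.02 on CKO 1, 2 and 3, against 1.32, 2.28 and 2.47 on controls 1, 2 and 3. As for Gfi1b, control 1 lay below and controls 2 and 3 above the CKO arrays. The Lyl1 difference was -0.05 ± 0.31 (SE, n = 3 and 3), and -0.41 without control 1. Lmo2, probe A_51_P223686 (mm7, chr2:103826971-103831684, plus strand, across an intron), read -0.70, -0.24 and -0.39 on CKO 1, 2 and 3, against -0.90, -0.82 and -0.38 on controls 1, 2 and 3. The genotypes overlapped, with a difference of 0.26 ± 0.21 (SE), a same-day difference of 0.46 and a difference of 0.16 without control 1. Neither gene passed.

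Spi1 encodes PU.1, an ETS factor of myeloid and lymphoid cells. Its probe, A_52_P498086 (mm7, chr2:90950224-90964011, plus strand), was not well above background on any of the 6 arrays, so it has no difference here.

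**Figure D1:**
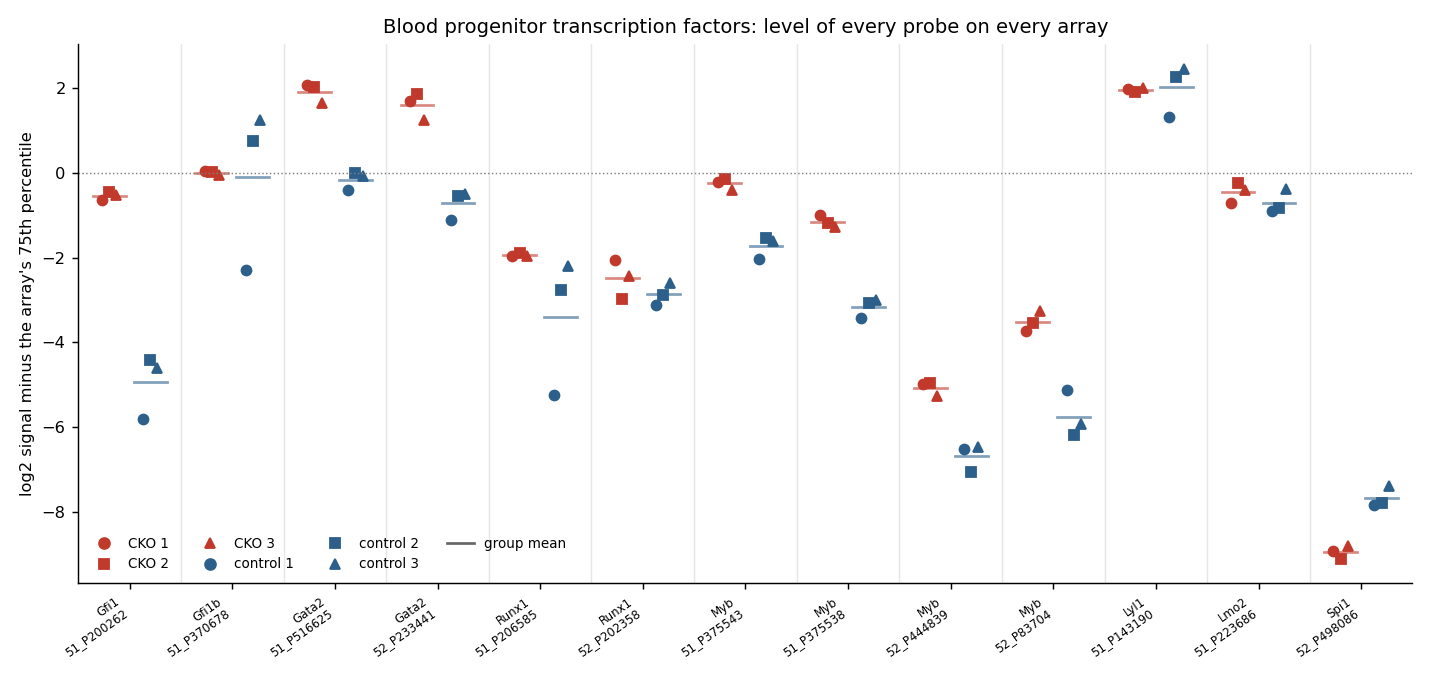
Level of each of the 13 member probes on each array (log2 signal less the 75th percentile of the array), with the 3 CKO arrays (red) left of the 3 controls (blue) and lines at the group means. CKO points lie above all controls for Gfi1, both Gata2 probes, all 4 Myb probes and 1 Runx1 probe. Control 1 (blue circle) is far below the other controls for Gfi1b and that Runx1 probe. Spi1, at the right, was not well above background on any array.

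Read through the brightest measured probe of each gene, 3 of the 7 measured members (Gfi1, Gata2 and Myb) passed as higher in Brg1 CKO and 4 did not pass. Over the whole array 5.25% of genes passed as higher and 5.31% as lower. Of the 12 measured member probes 7 passed as higher and 0 as lower, where 5.02% of all probes passed as higher. The groups did not overlap for 4 of the 7 genes, the 3 named and Runx1, and they did not overlap for 41.9% of all genes. For Runx1 this holds through the probe A_51_P206585, while on its other probe the groups overlapped. The members were chosen on this same contrast, so nothing is read from these shares. The median difference of the 7 members was 1.47, with a same-day median of 1.51, beside 0.07 and 0.00 over all genes. That median is the value of the Runx1 probe A_51_P206585, which did not pass and gave 0.54 without control 1. The other Runx1 probe, A_52_P202358, was nearly as bright and gave 0.38, with a same-day difference of -0.10.

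Over the 6 fits that left out 1 array, the difference ranged from 1.96 to 2.21 for the brightest Gata2 probe and from 1.32 to 1.57 for the brightest Myb probe. Gfi1 and Gata2 passed in each of these fits. Myb passed in 5 of them and did not pass without CKO 1. With scan day or the labelling batch as a block no member passed. Either block leaves CKO 2 as the only CKO array compared with the 3 controls. The estimates then equal the same-day differences, 4.50 for Gfi1, 2.19 for Gata2 and 1.59 for Myb. Whether scan day or labelling itself changed the calls was not tested.

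**Figure D2:**
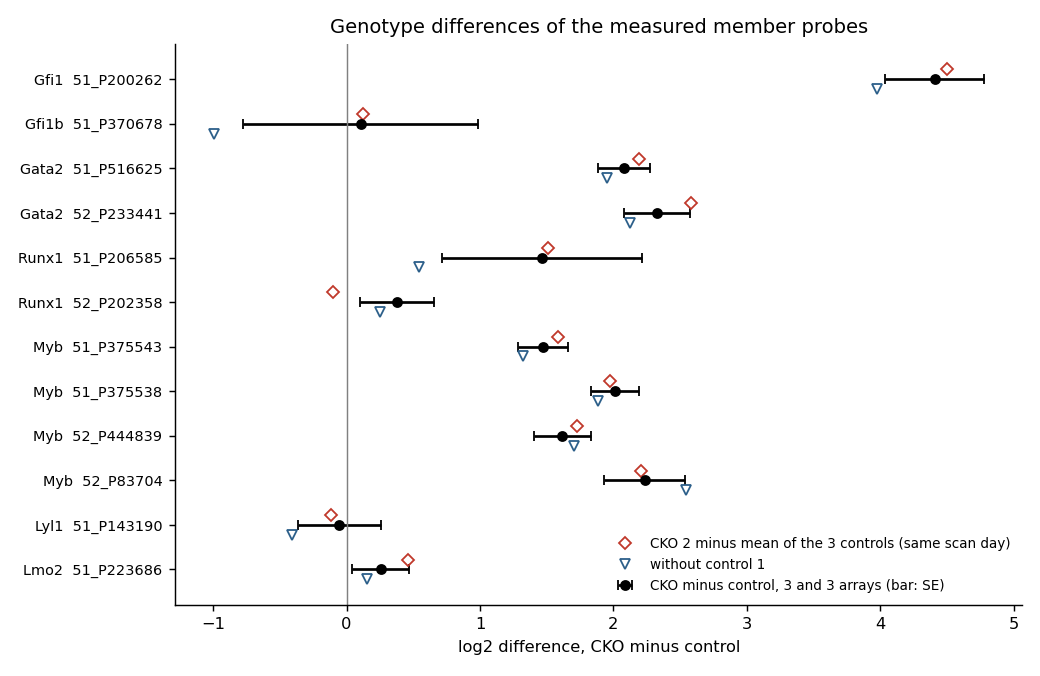
Log2 difference, CKO minus control, of the 12 measured member probes. Black points are the differences over 3 and 3 arrays with their SE, red diamonds the same-day differences and blue triangles the differences without control 1. The diamonds of Gfi1, Gata2 and Myb lie close to the black points, while Gfi1b moves to -0.996 without control 1.

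The spread between arrays of 1 genotype differed among the members. The SD of the brightest probe over the 3 arrays ranged from 0.04 to 0.23 in Brg1 CKO and from 0.21 to 1.92 in controls. On the other Runx1 probe, A_52_P202358, nearly as bright as the one used, this SD was 0.46 in Brg1 CKO and 0.27 in controls. It was 0.05 in Brg1 CKO and 1.92 in controls for Gfi1b, and 0.06 in Brg1 CKO and 0.62 in controls for Lyl1. For Gata2 it was 0.23 in Brg1 CKO and 0.21 in controls, and for Lmo2 0.23 in Brg1 CKO and 0.28 in controls. Read through the brightest probes, in all 7 measured members control 1 lay below the mean of the other controls, with a median gap of -1.06, beside 0.07 over all genes. That gap was -3.30 for Gfi1b and -2.77 for the Runx1 probe A_51_P206585, but -0.36 for Gata2, -0.45 for Myb and -0.30 for Lmo2. On the dim Myb probes A_52_P83704 and A_52_P444839 it went the other way, at 0.94 and 0.26.

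Other genes of blood and yolk sac were also low in control 1. The 13 measured markers of primitive red cells (the globin genes Hbb-bh1 and Hba-x and others) all had the same sign of this gap, with a median of -2.99. Their summed level, in units of the array's 75th percentile, was 76.9 to 93.6 on the CKO arrays, against 76.5 on control 1, 296 on control 2 and 341 on control 3. The 10 markers of yolk sac endoderm (Afp, Ttr, the apolipoprotein genes and others) summed to 358 to 420 on the CKO arrays, against 96.4 on control 1, 431 on control 2 and 459 on control 3. For both lists control 1 thus stood far below the other controls. The CKO arrays were near control 1 for red cell markers and near controls 2 and 3 for yolk sac markers. Their part in the member differences was not tested. In whole embryos, fewer cells of a type and less RNA per cell cannot be told apart.

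**Figure D3:**
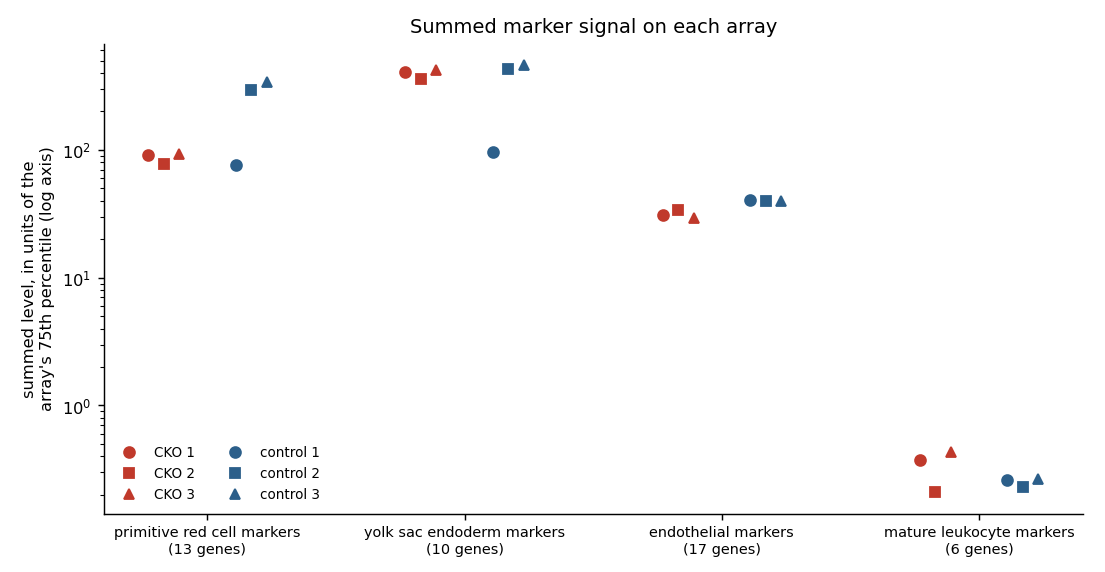
Summed level of each marker list on each array, in units of the array's 75th percentile on a log axis, with CKO arrays (red) left of controls (blue). Control 1 is low for red cell and yolk sac markers, at 76.5 and 96.4, and level with the other controls for endothelial markers.

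Of the 13 red cell markers 3 passed, all lower in Brg1 CKO, and the list's median difference was -1.43. Without control 1 all 13 passed and the median was -2.02, whereas 0 passed in limma without CKO 1, CKO 3 or control 2. The 3 genes were Hemgn, a nuclear protein of blood cells (-5.56 ± 0.79, limma adjusted p 0.0132), the red cell membrane gene Ermap (-4.06 ± 0.84, limma adjusted p 0.0357) and the water channel gene Aqp1 (-1.79 ± 0.26, limma adjusted p 0.0137). On the 3 CKO arrays, Hemgn exceeded background clearly on 2 and Ermap on 1. Of the yolk sac markers 0 passed in this limma fit, with a median of 0.70 that turned to -0.18 without control 1, and Amn, a receptor subunit of absorptive endoderm, had the smallest p (1.34 ± 0.70, limma adjusted p 0.229).

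Endothelium is the tissue from which definitive blood arises, and its markers had a median of -0.41. Of 17, 4 passed as lower and 1 as higher in Brg1 CKO. Emcn (endomucin) fell by 4.19 ± 0.30 on the log2 scale (limma adjusted p 0.00203), an 18.2-fold difference. The adhesion genes Icam2 and Cdh5 (VE-cadherin) fell by 1.39 ± 0.15 and 1.31 ± 0.20. Sox17, a factor of arterial and haemogenic endothelium and also of endoderm, rose by 1.01 ± 0.18 (limma adjusted p 0.0233). Emcn and Icam2 passed in each of the 6 fits without 1 array, Cdh5 in 3 and Sox17 in 2. Only 2 genes of the list passed without CKO 1, CKO 3 or control 2. The summed level of the 17 markers was 29.3 to 33.8 on the CKO arrays, against 39.5 to 40.7 on the controls, so control 1 did not stand apart here. The receptor gene Kdr, which marks the shared precursors of blood and endothelium, did not pass (-0.55 ± 0.20), nor did Pecam1 (0.03 ± 0.15). The receptor gene Tek did not pass through its brighter probe (-0.82 ± 0.26), while its dimmer probe did, at -1.31. These 3 were picked after their values were seen.

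Among 27 other blood transcription factors, 2 passed, both as higher in Brg1 CKO, and the median was 0.21. They were Cebpa, a factor of myeloid cells and liver (1.68 ± 0.27, limma adjusted p 0.0184), and Bcl11a, which represses globin genes and acts in neurons (1.79 ± 0.38, limma adjusted p 0.0371). Bcl11a passed in 1 and Cebpa in 5 of the 6 fits without 1 array, and the second measured probe of each did not pass, at 0.67 for Cebpa and 1.27 for Bcl11a. Both probes were dim, with mean levels of -4.33 and -3.83 in Brg1 CKO and -6.00 and -5.62 in controls for Cebpa and Bcl11a. With normexp correction or quantile scaling 1 gene of this list passed, and with array weights 10 did. Erg did not pass through its brighter probe (-0.25 ± 0.18), while its dimmer probe, not well above background on any CKO array, passed as lower in Brg1 CKO. The partners of the members in the Lmo2 complex are given because of their role, after their values were seen. Tal1 differed by 0.49 ± 0.40, Gata1 by 1.33 ± 0.94 and Ldb1 by 0.06 ± 0.18, and none of these passed. Gata1 was lower in control 1 than in the other controls by 3.48 and Tal1 by 1.41, while Ldb1 was higher there by 0.34.

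Gfi1 and Gfi1b share their SNAG domain with a small family of repressors and work through lysine demethylase, CoREST and histone deacetylase proteins. None of the 17 measured genes of this group passed in limma, and their median was -0.03, or 0.05 without control 1. Insm1, a SNAG factor of neuroendocrine cells, had the smallest p (1.34 ± 0.40, limma adjusted p 0.0815). The demethylase gene Kdm1a, also picked after its value was seen, differed by -0.03 ± 0.15.

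Genes described elsewhere as repressed by Gfi1 or Gfi1b did not share a direction. Of 17 measured, 3 passed as higher and 1 as lower in Brg1 CKO, with a median of 0.24. The cyclin-dependent kinase inhibitor genes Cdkn2b and Cdkn1a rose by 3.15 ± 0.17 and 1.93 ± 0.19 (limma adjusted p 0.0011 and 0.00491), and the apoptosis effector Bax by 0.70 ± 0.17 (limma adjusted p 0.0498). Csf1, the gene of the macrophage growth factor, fell by 1.48 ± 0.14 (limma adjusted p 0.00466). Cdkn2b, Cdkn1a and Csf1 passed in each of the 6 fits without 1 array, and Bax in 1. Cdkn1a and Bax are also targets of p53, and 7 of the 19 listed genes belong to another list here. Id2 did not pass through its brighter probe (0.57 ± 0.14, limma adjusted p 0.0559), although its other probe passed at 0.91.

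Receptors and products of blood progenitors and their offspring had a median of 0.34, which turned to -0.096 without control 1. Of 21 measured genes 2 passed as lower and 1 as higher in Brg1 CKO. Cd93 and Cd34, surface proteins of early progenitors and of endothelium, fell by 1.48 ± 0.28 and 1.04 ± 0.20 (limma adjusted p 0.0281 and 0.0299), and the platelet receptor gene Gp1bb rose by 0.85 ± 0.17 (limma adjusted p 0.0335). Each of the 3 passed in 2 of the 6 fits without 1 array. Kit, the stem cell factor receptor, did not pass (0.13 ± 0.20) and was picked after its value was seen. Ptprc, the general leukocyte marker CD45, was well above background on 0 CKO arrays and 1 control array and was not measured.

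Gfi1 is also active outside blood, in hair cells of the inner ear. The defining hair cell genes Atoh1, Pou4f3 and Lhx3 were not measured, and none of the 5 measured hair cell markers passed in limma through its brightest probe. A dimmer probe of Barhl1, not well above background on any CKO array, passed as lower in Brg1 CKO, opposite in sign to its brightest probe (1.01 ± 0.30). Otof had the smallest p of them (0.97 ± 0.27, limma adjusted p 0.0704). Of the 13 mature leukocyte markers 6 were measured, and they summed to 0.209 to 0.434 on the CKO arrays, against 0.231 to 0.265 on the controls. Cd79b, part of the B cell receptor, was the 1 gene of this list that passed (-1.58 ± 0.34, limma adjusted p 0.0396). Among the CKO arrays, 2 of 3 read it well above background, so the stricter filter on dim probes leaves it out. It passed in 2 of the 6 fits without 1 array, and its difference was -0.56 with normexp correction.

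The genes beside Gfi1 on chromosome 5 were read as well. In the order of the reference annotation, Rpap2, A930041C12Rik and 4930428O21Rik lie on one side, and Gm42147, Evi5 and Ube2d2b on the other. Rpap2 differed by 0.43 ± 0.18 (limma adjusted p 0.156) and Evi5 by 0.04 ± 0.32 (limma adjusted p 0.942), and neither passed. The remaining 4 were not measured. Taken as same-day differences, the list medians were -1.53 for red cell markers, -0.50 for endothelial markers and 0.63 for yolk sac markers. They were 0.11 for the other blood transcription factors, -0.04 for the SNAG group, 0.28 for the genes repressed by Gfi1 or Gfi1b and 0.12 for the receptors and products, beside 0.00 over all genes.

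**Figure D4:**
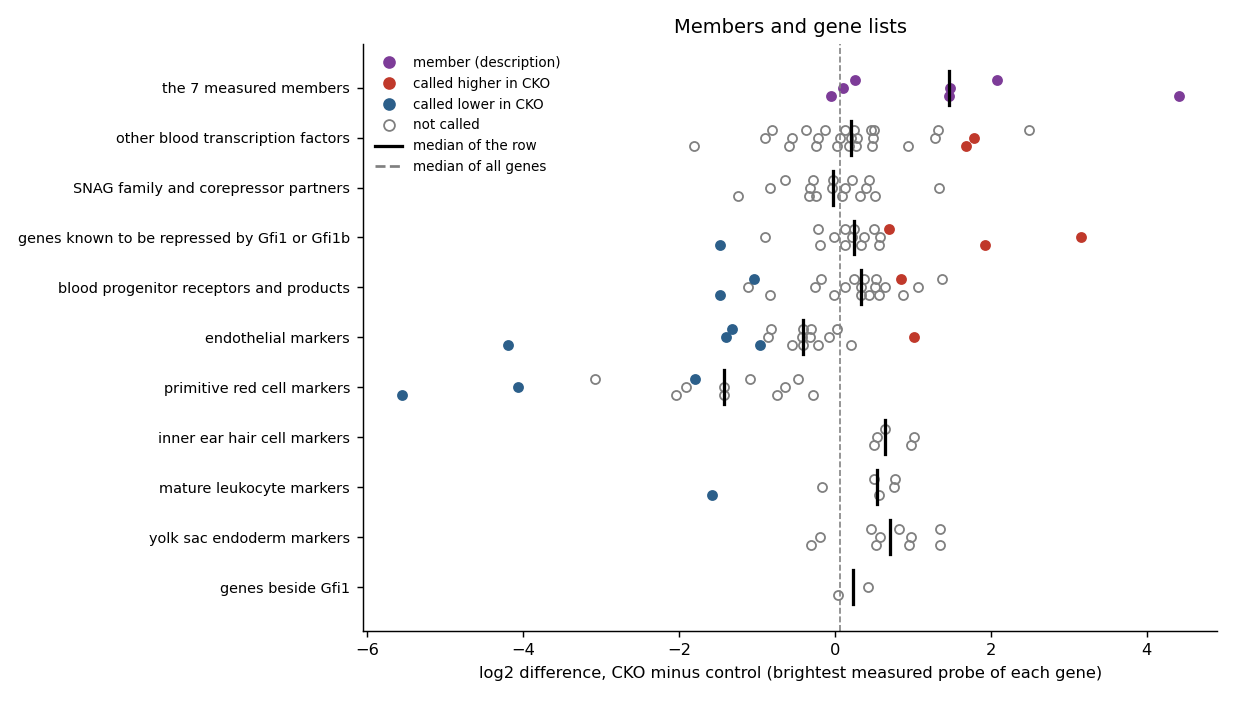
Log2 difference, CKO minus control, of every measured gene of each list through its brightest probe, with filled points for genes that passed (red higher, blue lower in CKO), bars at the list medians and a dashed line at the median of all genes, 0.07. The 7 members (purple, given as a description) reach 4.41 for Gfi1, and the red cell list lies wholly below 0.

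The patterns of the members over the 6 arrays were compared by the root mean square difference of their levels after each gene's own mean was subtracted. This is a description of the same arrays. Among the 21 pairs of measured members, Gata2 and Myb were nearest, at 0.31, followed by Lmo2 and Lyl1 at 0.34. The relatives Gfi1 and Gfi1b were the farthest pair, at 2.26.

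Outside the members, over 14194 genes that were well above background on all 6 arrays, the 5 nearest to Gfi1 were Dnmt3l, Dusp16, Cpb2, Cdkn2b and 1700007K13Rik, at 0.54, 0.65, 0.67, 0.70 and 0.72. They were chosen for this likeness, so their differences of 3.07 to 5.03 are no further evidence. Cdkn2b, the INK4 inhibitor named above, belongs also to the genes repressed by Gfi1 elsewhere. The 5 nearest to Gfi1b were Apol7a, Cited4, Havcr1, Gltpd2 and Slc2a2, at 0.12 to 0.15. Each of them had controls 2 and 3 above the CKO arrays and control 1 below by a wide margin, with gaps between control 1 and the mean of the other controls of -3.03 to -3.58.

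**Figure D5:**
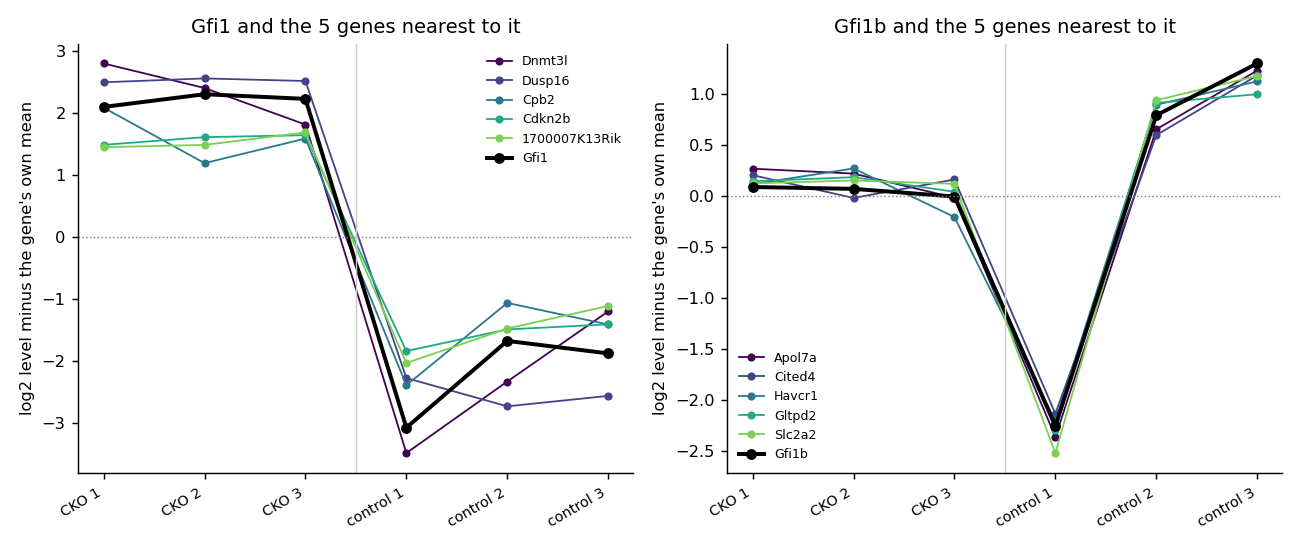
Level of Gfi1 (left) and Gfi1b (right) on each array after the gene's own mean was subtracted, in log2 units, in black, with the 5 genes nearest to each in colour and lines that only join the points of 1 gene. The Gfi1 group is split by genotype, with differences of 3.07 to 5.03, and the Gfi1b group by control 1, with gaps of -3.03 to -3.58 to the other controls.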

How the data were processed

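RNA of 6 whole-embryo samples, 250 ng each, was labelled with Cy3 and hybridised to 1 array per sample, per the labels' protocols. The authors deposited scanner tables of intensity from Agilent Feature Extraction 9.5, per the submitters' processing notes. Per the file headers they hold the background-subtracted processed signal, the raw mean and background intensity, and flags (other units, 0 or 1) that mark saturated spots, outliers and spots well above background. The deposited series table, also intensity, matched the processed signal to a relative 0.0001 at 100.0% of spots, and 0 of its columns belonged to other samples.

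Control and outlier spots were left out and the spots of a probe averaged. The log2 processed signal was used, minus the 75th percentile of each array over spots outside the controls. Of 41174 probes, 27854 were kept, those that every array of 1 genotype or of both read well above background. Probes were named through RefSeq by accession (22951), symbol (6659) or synonym (3109), and 8455 kept the array's name. A gene was read through its brightest probe. The genotypes were compared in R 4.3.3 with limma 3.58.1 (two-sided, Benjamini-Hochberg over all kept probes). The fit was tested on simulated data. Python 3.11.15 and matplotlib 3.10.9 were used for the rest. Precision is limited by having 3 arrays per genotype, and p-values measure only the spread between these samples.

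The members and the gene lists were chosen with earlier results of these data known. The genes named are all member and Smarca4 probes, from each list the passing genes with the largest differences, at most 4 (where none passed, the gene with the smallest p), the 3 genes on either side of Gfi1 and the 5 genes nearest to Gfi1 and to Gfi1b. A few others are marked as picked after their values were seen, or are given for a dimmer probe that passed. Some more are named only as list examples or as not measured. Alternatives tried were median and quantile scaling, normexp correction (offset 50), a stricter filter on dim probes and none, the series table, robust eBayes with an intensity trend, array weights (which gave a convergence warning), blocks for slide (random), scan day, labelling batch and replicate number, a 2-fold minimum, averaging a gene's probes, and leaving out each array in turn.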

Additional observations from a re-analysis of the deposited data

How the results depend on the processing

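Limma called 2610 probes, 18 listed genes and 3 members. With array weights it called 11792 probes and 59 listed genes, with no filter on dim probes 1125 and 9, and with the labelling batch as a block 170 probes, 3 listed genes and 0 members. With scan day as a block it called 0 probes, 0 listed genes and 0 members, although 3036 probes had an unadjusted p under 0.05. Without this block there were 8834 such probes. CKO 1 and CKO 3 were each scanned on a day of their own, so the scan day block leaves CKO 2 alone against the 3 controls. The labelling batch block also takes CKO 1 and CKO 3 out of the contrast. The calls with either block thus rest on 1 CKO array. Whether scan day or labelling itself changed the calls was not tested. Leaving out 1 array gave 472 to 4777 probes, 5 to 38 listed genes and 2 to 4 members. Leaving out CKO 1 gave 498 probes and 5 listed genes. Omitting CKO 2 gave 4777 probes, and omitting CKO 3 gave 479 probes and 6 listed genes. Dropping control 1 gave 38 listed genes. Dropping control 2 gave 472 probes and 6 listed genes, and dropping control 3 gave 1456 and 9. Apart from the arrays that these blocks take out of the contrast, the cause of these shifts was not tested. Without control 1 the fourth member was Gfi1b, lower in CKO, and without the filter it was Spi1, whose probe was not well above background on any array. Evi5, which did not pass, changed sign with array weights (-0.20), median scaling (-0.060) and without control 1 (-0.32), and leaving out 1 array gave -0.32 to 0.29. Gfi1b turned negative with array weights (-0.72), normexp correction (-0.014) and without control 1 (-0.996). Deviations from the group means of arrays with the same replicate number correlated at -0.127, 0.081 and 0.091, and those with different numbers at -0.19 to 0.109. With only 3 arrays behind each mean, these values cannot decide whether the numbers pair the samples. The replicate block gave 909 probes, 7 listed genes and 3 members. Of the other results, 344 values of named genes kept direction and call, 117 kept direction but lost the call and 5 gained it. Signals near background limit the dim Gfi1 and Myb readings in controls.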
